A study of Homo sapiens with 8 samples.

Results

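The genes described here encode phase II conjugation enzymes, which attach a polar group to drugs, hormones, bilirubin and other small molecules. They are the protein-coding genes of the RefSeq annotation (GRCh38.p14, the same assembly as hg38) whose symbols begin with UGT1, UGT2, UGT3 or UGT8, with GST followed by the letter A, M, O, P, T, Z or K, or with SULT and a digit. The rule took 53 of 20056 protein-coding genes, and 52 of 19866 had a position on a main chromosome. GSTT1 is annotated on an alternate scaffold and was not analysed here. The 52 genes comprise 22 UGT, 17 GST and 13 SULT genes.

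The files map the histone variant macroH2A1 in HepG2 cells, a human hepatoblastoma line used as a model of liver cells. All cells were transfected, either with a non-targeting siRNA (siControl) or with an siRNA against the histone chaperone ANP32B (siANP32B), and were harvested 3 days later. CUT&RUN, in which an antibody brings a nuclease to its target, was run with anti-macroH2A1 or with IgG in 2 libraries for each combination, 8 in all. The 4 anti-macroH2A1 libraries each have a list of broad enriched domains, a table by the authors compares the siRNAs over 4474 regions, and the 4 IgG libraries were not analysed here. The series asks how ANP32B affects the entry of macroH2A into chromatin.

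UGT enzymes transfer glucuronic acid, GST enzymes transfer glutathione and SULT enzymes transfer a sulfonate group from the cofactor PAPS. Many of their genes arose by tandem duplication and lie side by side, and several are strongly expressed in hepatocytes under HNF4A and the xenobiotic receptors. macroH2A1 carries a large extra domain and is known from broad stretches of weakly transcribed chromatin, although it is also found on some active and inducible genes. Expression was not measured in these libraries, so occupancy is given here without a level of transcription.

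The siControl libraries held 8623 and 8116 domains over 519.3 and 467.4 Mb, and the siANP32B libraries 7530 and 7404 domains over 563.8 and 558.6 Mb. The siControl 2 list thus covered the least sequence. The depth of the libraries is unknown, and a domain caller's output depends on it. The labels do not say whether replicates were separate cultures, and any spread or p-value describes only how far these libraries differ, for technical or other reasons. With 2 libraries against 2, an exact permutation test (two-sided) cannot give a p below 0.333.

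macroH2A1 domains lay over more of these genes than over protein-coding genes in general. Covered means that domains took up 50% or more of a gene body. Of the 52 genes, 28 (53.8%) were covered in both siControl libraries, against 2725 of 19866 protein-coding genes (13.7%). By class, 13 of 22 UGT, 8 of 17 GST and 7 of 13 SULT genes were covered in both. The same count was 13 of 56 (23.2%) for cytochrome P450 genes, which encode oxidising enzymes of the same detoxification route. These shares are descriptions with no test, because neighbouring genes share domains. With genes of overlapping span joined into 43 loci, 19 loci (44.2%) were covered in both siControl libraries.

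The genes fell into 2 clear classes with a smaller variable one. A total of 28 were covered in all 4 libraries, of which 21 lay wholly inside domains in each. Another 15 were covered in no library, including 7 with 0% in each, and 9 were covered in some libraries only. The rest of the 15 held shares below the threshold that differed between libraries. SULT2A1, for example, was at 33.5% and 0% with siControl and at 49.5% and 1.99% with siANP32B. The sizes of these classes depend on the threshold and were not compared at another one. The median covered share was 91.1% and 70.2% in siControl 1 and 2, and 84.3% and 93.7% in siANP32B 1 and 2. Over all protein-coding genes the median was 0% in each library.

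**Figure D1:**
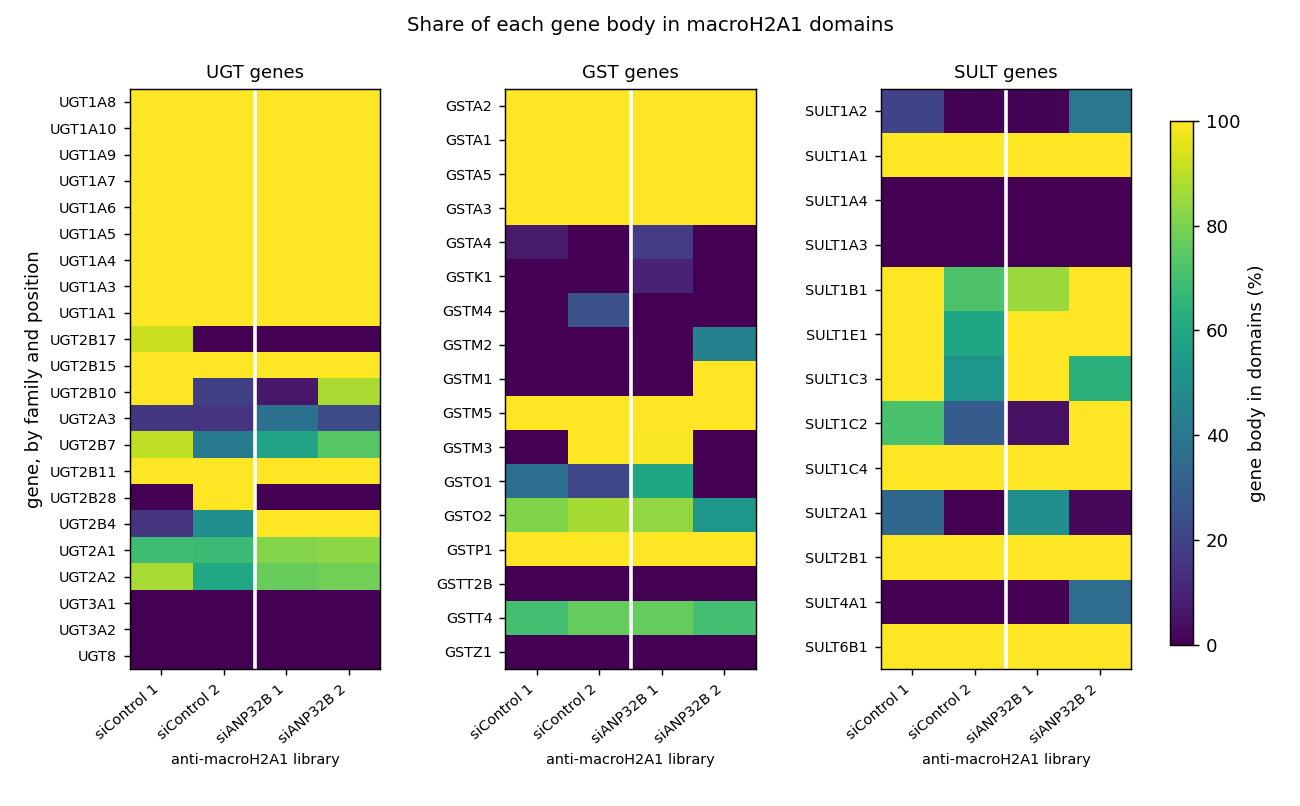
Share of each gene body in macroH2A1 domains (color, 0 to 100%) for 52 conjugation enzyme genes (rows, by family and position) in the 4 anti-macroH2A1 libraries (columns, with a white line between the siRNAs). The 9 UGT1A genes and 4 of 5 GSTA genes are at 100% in all 4 libraries, the UGT3A genes and UGT8 are at 0%, and UGT2B17, UGT2B28, UGT2B10 and UGT2B7 differ between libraries within 1 siRNA.

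All 9 UGT1A genes lay inside a single domain in every library. The UGT1A locus (chr2:233617633-233773300, 155.7 kb) is a nested array: each gene has its own first exon and start, and all share their last exons, so the 9 genes are not independent. UGT1A1 conjugates bilirubin, UGT1A4 many amines, and UGT1A6 and UGT1A9 phenols. The domain was 268 and 272 kb long in the siControl libraries and 485 and 278 kb in siANP32B 1 and 2. It extended beyond the genes on both sides in each library and overlapped USP40 and MROH2A. In siControl 2 and both siANP32B libraries it also overlapped HJURP, and in siANP32B 1 MSL3B and TRPM8 as well. The caller's score of this domain was 209, 226, 152 and 199 in the order siControl 1, siControl 2, siANP32B 1 and siANP32B 2. That placed it within the top 2.67%, 2.33%, 3.63% and 1.58% of the 4 lists, so the high rank did not separate the siRNAs.

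Inside this unbroken domain, 1 region was called lower after siANP32B in the authors' deposited table. It spans chr2:233710001-233817000 (107 kb) and takes in UGT1A5, UGT1A4, UGT1A3 and UGT1A1 whole, and 63.3 kb of each longer gene. In the authors' deposited table it had a log2 fold of -0.43 and a false discovery rate (FDR) of 0.0363, so 74.2% of the signal was left in the representative window. Of its 98 windows in the authors' deposited table, 20 were down and 0 up. The starts of UGT1A8, UGT1A10, UGT1A9, UGT1A7 and UGT1A6 lie outside it, and no other tested region overlaps the locus.

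The 250 bases before the 4 UGT1A starts inside that region are shown from RefSeq (GRCh38.p14), 5′ to 3′, because they are the regulatory ends of the genes that it covers whole. Capitals mark matches, on either strand, to TATAAA (the TATA box), TGACNNNGC (the core of the antioxidant response element) or GCGTG (the core of the xenobiotic response element).
UGT1A5, chr2:233712657-233712906, plus strand: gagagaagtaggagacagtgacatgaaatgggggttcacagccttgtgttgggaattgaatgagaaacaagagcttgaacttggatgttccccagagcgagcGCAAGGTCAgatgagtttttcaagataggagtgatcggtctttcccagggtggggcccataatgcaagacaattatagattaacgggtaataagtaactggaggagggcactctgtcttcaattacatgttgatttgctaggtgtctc
UGT1A4, chr2:233718486-233718735, plus strand: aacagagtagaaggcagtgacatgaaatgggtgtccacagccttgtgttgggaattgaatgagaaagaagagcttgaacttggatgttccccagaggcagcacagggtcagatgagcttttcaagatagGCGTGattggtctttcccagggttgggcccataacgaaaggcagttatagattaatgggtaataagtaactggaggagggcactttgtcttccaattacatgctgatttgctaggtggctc
UGT1A3, chr2:233728792-233729041, plus strand: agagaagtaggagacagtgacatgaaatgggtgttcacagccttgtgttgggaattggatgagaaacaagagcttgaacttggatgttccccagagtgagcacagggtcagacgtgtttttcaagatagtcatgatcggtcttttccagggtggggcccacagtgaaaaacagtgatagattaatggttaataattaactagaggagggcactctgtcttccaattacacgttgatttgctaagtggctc
UGT1A1, chr2:233760020-233760269, plus strand: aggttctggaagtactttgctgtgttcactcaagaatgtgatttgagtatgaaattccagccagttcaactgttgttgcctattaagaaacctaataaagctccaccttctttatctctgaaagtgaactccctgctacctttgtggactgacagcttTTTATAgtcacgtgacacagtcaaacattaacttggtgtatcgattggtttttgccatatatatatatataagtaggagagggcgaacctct
UGT1A3 and UGT1A4 had the same base at 263 of 300 positions around their starts (87.7%, without gaps). The UGT1A5 window holds a TGACNNNGC match 148 bases before the start, on the opposite strand (GCAAGGTCA). The UGT1A1 window holds a TATAAA match 92 bases before the start, also on the opposite strand (TTTATA). The TA repeat nearer the UGT1A1 start holds no TATAAA and is not marked. The UGT1A4 window holds a GCGTG match 121 bases before the start, and the 250 bases before UGT1A3 hold no match. A match is a run of letters and was not tested as a binding site.

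**Figure D2:**
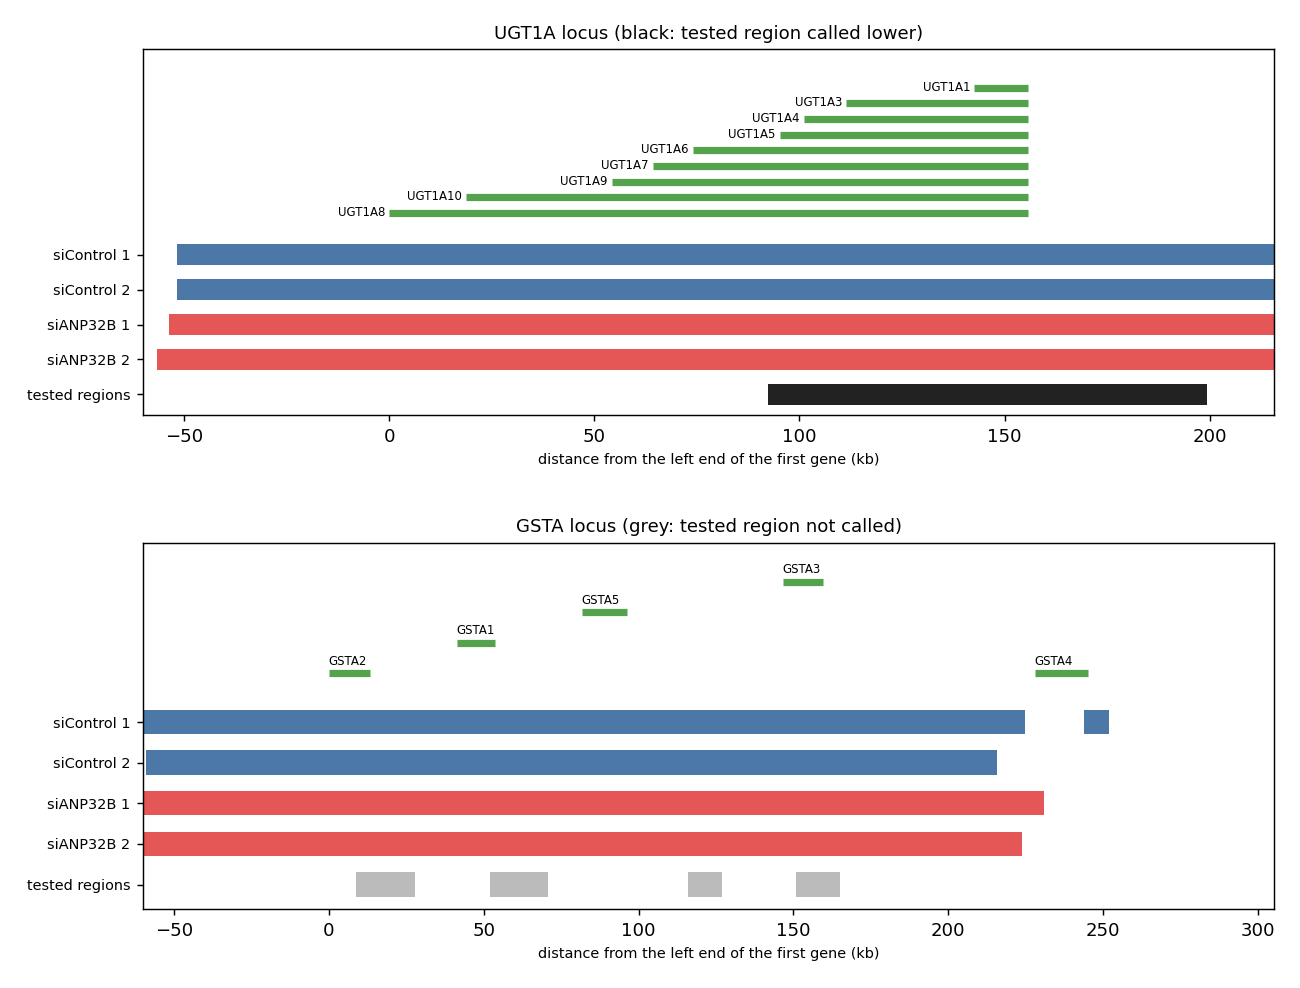
Genes (green), macroH2A1 domains of each library (blue siControl, red siANP32B) and tested regions at the UGT1A and GSTA loci, against distance in kb from the left end of the first gene; domains that leave the panel go on beyond it. The UGT1A genes lie in 1 domain in each library, with a region called lower (black) over their right part. The main GSTA domain ends before GSTA4 or just inside it, and the 4 GSTA regions were not called (grey).

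The UGT2 genes, with SULT1B1 and SULT1E1, form the longest locus of the set, and coverage of several of its genes differed between libraries. It runs over 1323 kb (chr4:68537173-69860145) with 12 genes and no domain of its whole length. Domains took up 76.4% and 65.5% of it in the siControl libraries and 75.1% and 82.6% in the siANP32B libraries. The difference of 7.87 points (70.9 ± 7.76 against 78.8 ± 5.29, SD, n = 2 each) was about as large as the SD between the siControl libraries, and the groups overlapped, with an exact permutation p of 0.667. It was divided into 9 and 15 domains with siControl and 12 and 10 with siANP32B. The siControl 2 library, which had the shortest domain total genome-wide, also had the lowest share and the most pieces here; the part of library coverage in these differences was not tested.

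UGT2B15 and UGT2B11 were 100% covered in all 4 libraries. UGT2B15 glucuronidates androgens. UGT2A1, known from the nasal epithelium, was covered by 68.8% and 68.2% with siControl and 81.5% and 83.0% with siANP32B, so both siANP32B libraries lay above both siControl libraries. UGT2A2, whose whole span lies within UGT2A1, was at 87.0% and 59.8% against 76.6% and 78.5%, and its groups overlapped. UGT2B7, which conjugates morphine and bile acids, ranged from 41.6% in siControl 2 to 90.3% in siControl 1, with 58.4% and 74.1% in the siANP32B libraries between them.

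UGT2B4, a bile acid and catechol estrogen UGT, showed the largest difference in mean coverage of the 52 genes. It was covered by 15.3% and 49.8% in the siControl libraries and by 100% in both siANP32B libraries, a difference of 67.5 points (exact permutation p = 0.333, the smallest that 2 against 2 can give). In siControl 1 a separate domain of 7 kb lay inside the gene, in siControl 2 a domain of 60 kb ran into it and ended there, and in both siANP32B libraries a domain spanned it whole. No region of the authors' deposited table overlaps UGT2B4, so its signal was not compared there. UGT2A3 stayed low, at 16.3% and 15.2% with siControl and 37.7% and 22.9% with siANP32B, again with no overlap between the groups.

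Other UGT2B genes changed between libraries of the same siRNA. UGT2B17, a testosterone UGT, was at 92.0% in siControl 1 and at 0% in the other 3 libraries. UGT2B28 was at 100% in siControl 2 alone and at 0% in the rest. UGT2B10, which conjugates nicotine, was at 100% and 18.8% with siControl and 6.28% and 87.4% with siANP32B. None of these separates the siRNAs. The UGT2B genes are close copies of each other. The starts of UGT2B10 and UGT2B11 had the same base at 69.7% of 300 positions. That comparison was made without gaps, so stretches shifted by a few bases were not counted as the same. The placing of reads that match several copies is another step not given in the sources used here, and coverage of these genes is uncertain.

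SULT1B1, which acts on thyroid hormones, was covered by 100% and 72.1% with siControl and 84.8% and 100% with siANP32B. SULT1E1, the estrogen sulfotransferase, was covered by 100% and 58.6% with siControl and by 100% in both siANP32B libraries. Its mean difference of 20.7 points came from siControl 2 alone, and the groups overlapped.

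The authors' deposited table holds 22 tested regions along this locus. Of the 7 over a gene of the set, 1 was called lower, and of the 15 between those genes, 9 were, while none was called higher in the authors' deposited table. The authors' deposited table called 58.4% of all 4474 regions lower, so the count between genes is near that background. In the authors' deposited table the folds (log2) had a median of -0.47 over genes, and of -0.63 with a range of -1.12 to 0.09 between them. This split was noticed after the values were seen and has no test. The lowest fold of the locus in the authors' deposited table lies between UGT2A1 and SULT1B1 (chr4:69680001-69699000), at -1.12 on the log2 scale with an FDR of 7.28e-06. The region called lower over a gene (chr4:69708001-69724000) touches only 2.83 kb, or 7.18%, of SULT1B1, with a log2 fold of -0.69 (FDR 0.00151) and 7 of 7 windows down in the authors' deposited table.

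**Figure D3:**
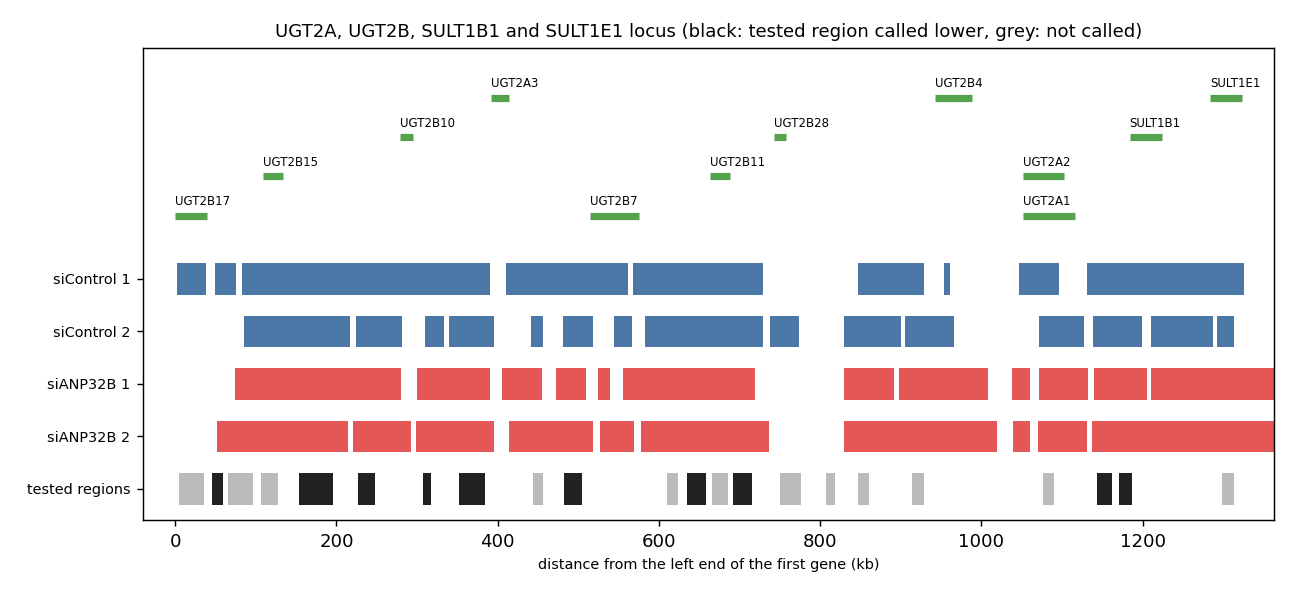
Genes (green), macroH2A1 domains of the siControl (blue) and siANP32B (red) libraries and tested regions along the 1323 kb UGT2, SULT1B1 and SULT1E1 locus, against distance in kb from the left end of UGT2B17. Domains run over UGT2B4 whole in both siANP32B libraries, UGT2B17 and UGT2B28 lie in a domain of 1 library each, and regions called lower (black) lie mostly between the genes.

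Outside these arrays no UGT gene was in a domain. UGT3A1 and UGT3A2, which use sugars other than glucuronic acid, and UGT8, which makes galactosylceramide for myelin, were at 0% in all 4 libraries. None of the 3 overlapped a region of the authors' deposited table.

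Among GST genes, the GSTA array was the most fully occupied. GSTA2, GSTA1, GSTA5 and GSTA3 were 100% covered in every library, inside 1 domain of 286 and 275 kb with siControl and 403 and 285 kb with siANP32B. GSTA1 and GSTA2 are the main alpha class enzymes of hepatocytes, and GSTA3 is known for a step of steroid synthesis. GSTA4, which detoxifies the lipid aldehyde 4-hydroxynonenal and lies at the right end of the array, was at 7.41% and 0% with siControl and 17.6% and 0% with siANP32B. The covered share of the locus (chr6:52750087-52995284) was 92.3% and 88.1% against 94.2% and 91.3%, with overlapping groups. All 4 tested regions at this locus missed the threshold in the authors' deposited table. In the authors' deposited table they had log2 folds of -0.02 at GSTA2, -0.33 at GSTA1, -0.06 at GSTA3 and -0.18 between genes.

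The 250 bases before the GSTA1 and GSTA2 starts (RefSeq, GRCh38.p14, same capitals) are shown as near-identical copies at which reads can be hard to tell apart.
GSTA1, chr6:52803817-52804066, minus strand: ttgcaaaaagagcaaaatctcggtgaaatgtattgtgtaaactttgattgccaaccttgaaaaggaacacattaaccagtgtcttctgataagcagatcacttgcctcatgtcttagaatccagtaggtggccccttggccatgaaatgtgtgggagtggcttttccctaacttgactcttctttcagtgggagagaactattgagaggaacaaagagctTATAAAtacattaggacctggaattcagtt
GSTA2, chr6:52763476-52763725, minus strand: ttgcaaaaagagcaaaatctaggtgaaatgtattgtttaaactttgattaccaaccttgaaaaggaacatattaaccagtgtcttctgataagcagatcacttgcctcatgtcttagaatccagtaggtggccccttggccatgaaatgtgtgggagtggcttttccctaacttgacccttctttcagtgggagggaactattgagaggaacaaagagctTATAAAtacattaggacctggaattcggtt
Around the start, 288 of 300 bases were the same in both (96.0%), and both hold a TATAAA match 30 bases before the start. Coverage of each single copy is therefore uncertain at the start. The rest of both genes was not compared, and the placing of reads is not known. The domain over both is far longer than either gene.

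The GSTM array (chr1:109656099-109741038, 84.9 kb) was occupied mainly in its right part. GSTM5 was at 100% in all 4 libraries. GSTM3 was at 0% and 100% with siControl and at 99.5% and 0% with siANP32B, and GSTM1 was at 100% in siANP32B 2 and at 0% in the others. GSTM2 reached 43.9% in siANP32B 2 and GSTM4 25% in siControl 2, and both were at 0% elsewhere. Domains took up 38.9% and 47.0% of the array with siControl and 44.7% and 63.6% with siANP32B. The rise of 50 points in the mean of GSTM1, the second largest of the set, came from 1 library.

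GSTP1, the pi class enzyme, was covered whole in all 4 libraries. Its domain of 110, 99, 102 and 99 kb also held CDK2AP2, CABP2 and NDUFV1. The GSTP1 start is shown because it was the most CpG-rich start of the set in a domain of every library, with a ratio of observed to expected CpG of 0.879; its capitals mark a TGACNNNGC match 66 bases before the start.
GSTP1, chr11:67583562-67583811, plus strand: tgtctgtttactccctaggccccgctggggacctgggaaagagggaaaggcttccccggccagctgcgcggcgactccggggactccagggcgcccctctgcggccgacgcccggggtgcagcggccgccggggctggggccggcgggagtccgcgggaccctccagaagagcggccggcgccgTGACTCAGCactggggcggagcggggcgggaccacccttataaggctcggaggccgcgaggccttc
GSTO2, an omega class enzyme, was covered by 80.9% and 86.5% with siControl and 83.7% and 53.1% with siANP32B. Its neighbour GSTO1 was at 36.3% and 21.3% against 58.9% and 0%. GSTT4 held 70.1% and 76.2% with siControl and 76.2% and 70.1% with siANP32B. GSTZ1, an enzyme of tyrosine breakdown, and GSTT2B were at 0% in all 4, and GSTK1 at no more than 9.87%. No GST gene outside the GSTA array overlapped a region of the authors' deposited table.

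SULT genes outside the chromosome 4 locus ranged from wholly covered to empty. SULT2B1 (chr19:48552172-48599427), a cholesterol sulfotransferase of skin and other epithelia, was 100% covered in each library, in a domain of 127, 124, 127 and 129 kb with LMTK3, FAM83E and SPACA4. It carried the lowest fold and the smallest FDR of the set in the authors' deposited table. That region (chr19:48498001-48593000, 95 kb) had a log2 fold of -0.97 and an FDR of 1.07e-05 in the authors' deposited table, and 65 of its 72 windows were down. The fold leaves 51.1% of the signal in the representative window. The region of the authors' deposited table shares 40.8 kb with SULT2B1, including its start, and also overlaps LMTK3. The start is shown as the only one outside UGT1A, of those matched, that lay in a called region; both capitals are GCGTG.
SULT2B1, chr19:48551922-48552171, plus strand: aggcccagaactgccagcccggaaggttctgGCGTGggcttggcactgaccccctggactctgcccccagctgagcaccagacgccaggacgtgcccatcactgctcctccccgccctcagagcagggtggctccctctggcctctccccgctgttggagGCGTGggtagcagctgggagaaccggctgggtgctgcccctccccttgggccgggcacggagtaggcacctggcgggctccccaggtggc

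SULT1A1, the phenol sulfotransferase of liver, was 100% covered in all 4 libraries in a domain of 57, 46, 49 and 48 kb. The region over it (chr16:28614001-28641000) was called lower in the authors' deposited table, with a log2 fold of -0.46 (FDR 0.0200) and 6 of 10 windows down. It also overlaps NPIPB8, of a family of near-identical copies. SULT1A2 next to it was at 20.6% and 0.979% with siControl and 0.979% and 40.1% with siANP32B. SULT1A3 and SULT1A4, which act on catecholamines, were at 0% in all 4. Their starts were identical at 300 of 300 bases, so reads within that stretch cannot be assigned to either. The rest of these genes was not compared, and a value of 0% is uncertain there.

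In the SULT1C array (chr2:108239968-108388989), SULT1C4 was 100% covered throughout. SULT1C3 was at 100% and 52.6% with siControl and 100% and 64.4% with siANP32B, and SULT1C2 at 71.5% and 29.0% against 4.35% and 100%. SULT6B1 was 100% covered in each library, and the region over it was not called, with a log2 fold of -0.33 (FDR 0.332) in the authors' deposited table. SULT2A1, the bile acid and DHEA sulfotransferase of liver, was at 33.5% and 0% against 49.5% and 1.99%. SULT4A1, a sulfotransferase of brain, was at 0% but for 35.6% in siANP32B 2.

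Across the whole set, the coverage after siANP32B did not differ from control by more than the spread between libraries. The joined gene bodies, 1137 kb, lay in domains by 62.2% and 53.9% with siControl and 60.2% and 62.6% with siANP32B. The means were 58.1% ± 5.84 and 61.4% ± 1.72 (SD, n = 2 each), a difference of 3.35 points with an exact permutation p of 0.667. The direction turned to -0.782 points without siControl 2. All protein-coding gene bodies together were at 13.4% and 11.7% against 15.9% and 14.9%. The number of covered genes was 32 and 30 with siControl and 32 and 33 with siANP32B.

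Both siANP32B libraries lay above both siControl libraries for 3 of 52 genes, UGT2B4, UGT2A1 and UGT2A3, all on chromosome 4. Among all protein-coding genes 9.04% did so. For 0 of 52 genes both lay below, against 2.95% of all protein-coding genes. A gene at 100% or at 0% in all 4 libraries cannot do either. In the set 21 genes were at 100% and 7 at 0%, against 1338 and 9263 of all 19866 protein-coding genes. No test of the shares was made, and they are not read as a difference from the background. The largest falls in mean coverage were those of UGT2B28 (-50 points), UGT2B17 (-46.0 points) and GSTO2 (-15.3 points), each with groups that overlapped. Each rests on 1 library: the difference was 0 points for UGT2B28 without siControl 2, for UGT2B17 without siControl 1 and for GSTO2 without siANP32B 2.

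In the authors' deposited table a smaller share of the regions over these genes than of all regions was called lower, and the folds of these regions were all below 0. The authors' deposited table has 14 regions over 23 of the genes, and 4 (28.6%) were lower at an FDR of 0.05, against 58.4% of all 4474 regions. None was higher in the authors' deposited table, against 3.82% of all regions, and 10 were not called. In the authors' deposited table the 14 regions had a median log2 fold of -0.39, against -0.54 for all regions, of which 3989 were below 0. No test of this difference was made. The order of the groups is not written in the table: folds were read as siANP32B over siControl. Regions called lower lay in siControl domains by 95.3% and 93.3% of their length and in siANP32B domains by 90.2% and 91.3%. For regions called higher the shares were 84.0% and 75.4% against 97.8% in each siANP32B library.

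For the authors' deposited table the scaling between libraries is likewise not given in the sources used here, and another scale would move all folds together. The 4 lower regions of the authors' deposited table touch 12 genes, but 9 of these are the UGT1A genes under 1 region. All 4 lay wholly in domains in each of the 4 libraries, so the lower folds of the authors' deposited table came without loss of a domain call. Among regions that missed the threshold, the authors' deposited table gives log2 folds of -0.79 at UGT2B28 (FDR 0.112) and -0.52 at UGT2B17 (0.0864). It was -0.47 at SULT1E1 (0.0880), -0.35 at UGT2B15 (0.0988) and -0.32 at UGT2B11 (0.15) in the authors' deposited table. The region inside UGT2A1 and UGT2A2 had -0.02 (0.960) in the authors' deposited table, although coverage of UGT2A1 was higher in both siANP32B libraries.

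**Figure D4:**
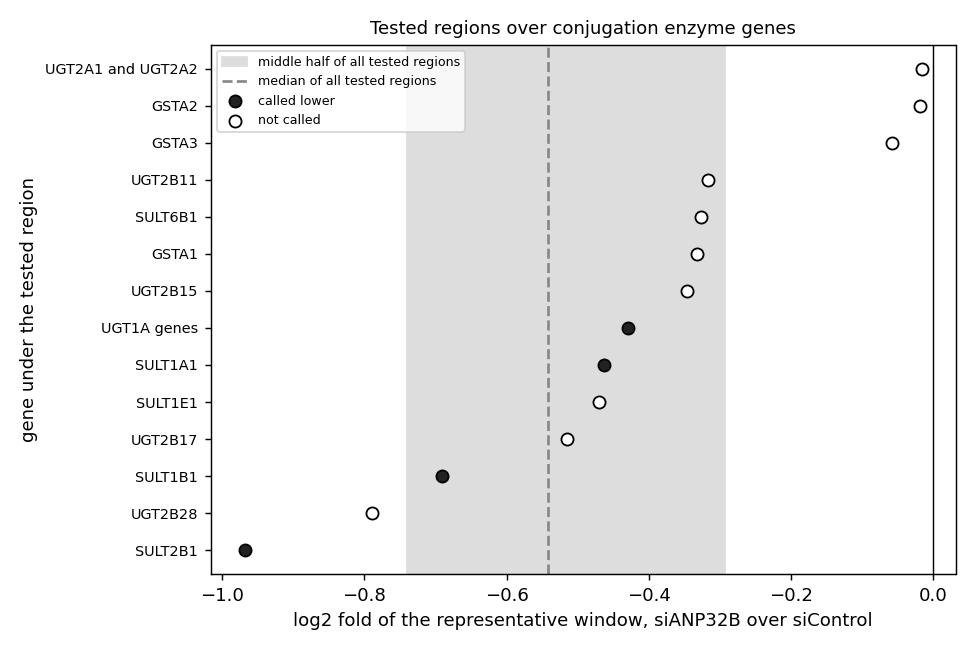
Log2 fold of the representative window, siANP32B over siControl, for the 14 tested regions over conjugation enzyme genes in the authors' deposited table (filled, called lower; open, not called). The shaded band holds the middle of all 4474 regions from the 25th to the 75th percentile and the dashed line is their median of -0.54; SULT2B1 lies below the band at -0.97 and the GSTA2, GSTA3 and UGT2A1 regions lie near 0.

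Gene starts of the set were often inside domains and poor in CpG. RefSeq windows of 300 bases, 250 before and 50 after the start, matched 44 of the 52 genes with 49 starts. UGT1A10, UGT2B4, UGT2B17, UGT2B28, GSTT2B, SULT1A1, SULT1A2 and SULT4A1 had no entry. Of the 49 starts, 24 (49.0%) lay in a domain of all 4 libraries, against 2889 of 22193 protein-coding starts (13.0%), and 11 lay in none. The median ratio of observed to expected CpG was 0.278, against 0.737 over all protein-coding starts. A ratio of at least 0.6 was found at 11 of 49 starts (22.4%), against 62.2% of all.

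CpG content was lowest at starts in a domain of all 4 libraries, both in the set and genome-wide. The median ratio was 0.237 at the 24 starts in a domain of all 4 libraries, 0.432 at the 14 in 1 to 3 libraries and 0.535 at the 11 in none. Over all protein-coding starts these medians were 0.571, 0.764 and 0.746, so there the starts in 1 to 3 libraries were not below those in none. Of the 24 starts, only those of GSTP1 and GSTM5 reached 0.6. The 3 starts of UGT8, at 0.752 to 0.880, and the GSTZ1 start, at 0.824, were in no domain. SULT1A3 and SULT1A4 had no CpG in the window and no domain. Starts of 1 array share ancestry, so these points are not independent.

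**Figure D5:**
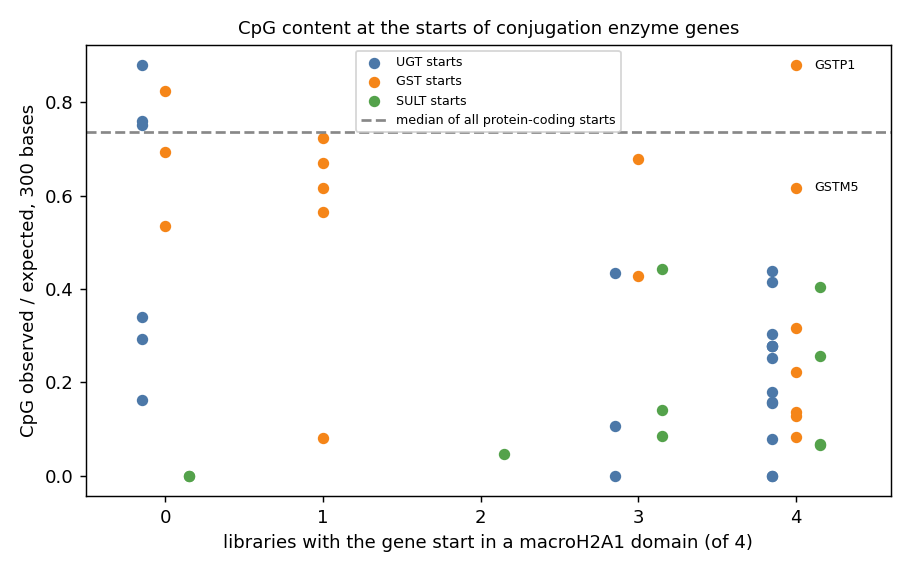
Ratio of observed to expected CpG in 300 bases at each of 49 starts, against the number of libraries (of 4) with the start in a macroH2A1 domain; points of the 3 classes are shifted sideways, and the dashed line is the median of all protein-coding starts (0.737). Of the starts in a domain of all 4 libraries, those of GSTP1 and GSTM5 stand above 0.6.

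TATAAA was found at 12 of 49 starts (24.5%), against 9.47% of all protein-coding starts. TGACNNNGC was at 20.4% against 13.8%, and GCGTG, which contains a CpG, at 30.6% against 43.0%. TATAAA holds no G or C, and the median share of G and C was 45.7% at these starts, against 62.3% over all. The part of base composition in any of the TATAAA shares was not tested. Matches to TATAAA lay 29 or 30 bases before the start at GSTA1, GSTA2, SULT1B1, SULT1C3 and SULT1E1. Those at SULT1B1 and SULT1C3 were on the opposite strand (TTTATA). At the other starts with TATAAA the matches, on either strand, lay 81 to 248 bases before the start. TATAAA was at 7 of the 24 starts in a domain of all 4 libraries, at 5 of the 14 in 1 to 3 libraries and at 0 of the 11 in none. Over all protein-coding starts the shares in these classes were 12.1%, 8.67% and 9.28%. The UGT2A1 start, outside domains in siControl 1 and inside them in the other 3 libraries, holds TATAAA 81 bases before the start. It is shown as an example of a start that changed between libraries.
UGT2A1, chr4:69653248-69653497, minus strand: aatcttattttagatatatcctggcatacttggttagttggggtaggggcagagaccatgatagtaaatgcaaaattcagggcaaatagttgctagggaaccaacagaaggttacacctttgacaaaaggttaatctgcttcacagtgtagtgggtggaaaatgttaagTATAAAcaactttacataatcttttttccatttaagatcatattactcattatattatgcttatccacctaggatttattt

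Other genes of conjugation were counted from a list of 45 genes for cofactor supply, other conjugating enzymes, reversal, export and regulation. Of these, 8 were covered in both siControl libraries, not far from the 13.7% of all protein-coding genes, and 12 were at 0% in all 4, against 9263 of all 19866. By role the counts were 1 of 10 for cofactor supply, 5 of 18 for other conjugation, 0 of 5 for reversal, 1 of 4 for export and 1 of 8 for regulators. In the authors' deposited table, 7 of the 45 genes lay under a region, 4 of them under one called lower and 0 under one called higher, against 58.4% and 3.82% of all regions. The counts are of genes, some under more than 1 region, whereas the shares are of regions, so the units differ. The count of 4 in 7 is not read as a difference from that background. Both siANP32B libraries lay above both siControl libraries for 4 of the 45 genes and below for 4, against 9.04% and 2.95% of all protein-coding genes.

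PAPSS2, which makes the sulfonate donor PAPS, was covered by 96.9% and 99.2% with siControl and 95.8% and 76.4% with siANP32B, so both siANP32B libraries lay below. Its 2 regions were lower in the authors' deposited table, at log2 folds of -0.72 (FDR 0.00172) and -0.49 (0.0118). HNF4A, a liver transcription factor, was covered by 75.9% and 100% against 100% and 89.9%, with a log2 fold of -0.88 in the authors' deposited table. GLYATL3, a glycine conjugation gene, also had -0.88, and NNMT, which methylates nicotinamide, had -0.64 in the authors' deposited table; each was called lower. SLC35B2, which carries PAPS into the Golgi, went the other way, from 0% in both siControl libraries to 100% in both siANP32B libraries. GLYAT, a glycine conjugation enzyme, was at 42.9% and 0% against 100% and 90.3%, and GLYATL2 and GCLC were also higher in both siANP32B libraries. TPMT, MGST2 and KEAP1 were lower in both, from at most 13.7% with siControl. Of the 4 higher genes none was under a region called in the authors' deposited table. GLYATL1 had a log2 fold of 0.57 that missed the threshold (FDR 0.0924) in the authors' deposited table. INMT, a methyltransferase, was 100% covered in each library. BAAT, which conjugates bile acids, ranged from 75.6% to 100%. ABCG2, an exporter of conjugates, ranged from 48.1% to 69.1%, and its 3 regions were not called.

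Cell type markers could not serve as a check of the label, since a domain map does not measure expression. Of 10 hepatocyte genes, 7 were covered in both siControl libraries, and of 8 genes of other lineages, 5 were, against 13.7% of all protein-coding genes.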

How the data were processed

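Genome-wide maps of macroH2A1 by CUT&RUN (nuclease digestion of 30 min, per the labels' protocols) were analysed from the deposited files. The submitters' processing notes name hg38 and, as the authors' tools, Bowtie2, Trim Galore, SAMtools, SICER, deepTools and edgeR. Their settings and versions: not given in the sources used here. Deposited by the authors were lists of domains, 1 per anti-macroH2A1 library, on a 1 kb grid, with the caller's score per domain, whose scale is not stated. For each region the authors' deposited table lists, per the file headers, its false discovery rate and p-value, windows up and down (other whole numbers), and the fold of a representative window. The deposited fold names no base and was taken to be log2, as edgeR, which the authors' notes name, reports it. The deposited rates equalled a Benjamini-Hochberg adjustment over 4474 regions. The table has 0 columns of values per library, so no count test was made.

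Gene bodies were those of RefSeq (GRCh38.p14), and genes listed on alternate scaffolds were left out. The share of each body in domains was computed in each library with Python 3.11.15, pandas 2.3.3 and numpy 2.4.6. Groups were compared by an exact permutation test over the 4 libraries, which was tested on simulated data. Genes at most 200 kb apart were shown as 1 locus, a distance chosen after the positions were seen. The members and lists were chosen with earlier results of these data known. Named were all members covered by at least 50% in 1 library or more, those under a tested region, and those with the 3 largest rises and falls; others are named to complete a family. Alternatives covered the threshold, the gene span, the domains kept, the false discovery rate and each library left out. Protein sequences were planned and are not used here, and 1 item planned for the list of other conjugation genes is not reported here.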

Additional observations from a re-analysis of the deposited data

How the results depend on the processing

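The count of 28 genes covered in both siControl libraries stayed between 22 and 30 with a threshold of 80% or 25%, 5 kb added at both ends or the 7404 best-scored domains per library, and was 19 of 43 for joined loci. It was 30 and 32 when 1 siControl library was left out. The difference in joined coverage, 3.35 points, was 4.87 with equal numbers of domains and 8.33 as a median over genes. It ranged from -0.782 to 7.48 when each library was left out in turn, with the lowest value, below 0, without siControl 2. The difference in the number of covered genes was 1.5, and 0.5 to 2.5 with a library left out. With a replicate block the differences were 3.35 points and 1.5 genes, with an exact sign-flip p of 1 each (the smallest possible is 0.5). Deviations of libraries with the same replicate number correlated by 0.0826 over protein-coding genes. The genes are not independent, so this value cannot settle what a replicate number shares, which the labels do not say. Regions called lower in the authors' deposited table numbered 4, against 2 at a false discovery rate of 0.01, 7 at 0.1, 3 with a larger overlap required and 6 with 5 kb added. The number called higher was 0 in the authors' deposited table under each of these. The background of 58.4% lower and 3.82% higher holds for a false discovery rate of 0.05. Shares of all regions at the other settings were not computed, so those counts are not set against a background.

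Leaving out 1 library in turn reversed some differences in coverage, given here as the lowest and highest value in points. By family they ranged from -0.907 to 3.40 for GSTA, -0.0191 to 21.2 for GSTM, -30.1 to 8.15 for GSTO, -1.50 to 4.50 for SULT1A and -3.82 to 30.8 for SULT1B1 with SULT1E1. They ranged from -14.9 to 21.5 for SULT1C, -3.71 to 8.23 for SULT2 and -2.69 to 13.0 for UGT2A with UGT2B. For single genes they ranged from -50.3 to 49.7 for GSTM3, -17.8 to 29.6 for SULT1C3, -45.9 to 49.7 for SULT1C2, -53.2 to 28.1 for UGT2B10, -24.0 to 24.6 for UGT2B7, -9.48 to 17.7 for UGT2A2, -7.60 to 20.3 for SULT1B1 and -28.8 to 30.1 for GSTO1. Those of UGT2B4 and UGT2A1 kept their sign, and that of GSTO2 ranged from -30.6 to 0. With equal numbers of domains the difference was 33.3 points for SULT1C (3.32 in the report's setting) and 55.9 for SULT1C3 (5.91). The causes were not tested. The unknown depth limits what an absent domain shows.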
